A study of Mus musculus with 26 samples.

Results

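Costimulatory and checkpoint ligands are the surface proteins through which an antigen-presenting cell tells a T cell to respond or to stand down. CD80 and CD86 bind CD28, which promotes activation, and CTLA-4, which restrains it, and ICOS ligand acts on ICOS. PD-L1 (Cd274) and PD-L2 (Pdcd1lg2) bind the inhibitory receptor PD-1. CD83 and CD40 mark activated or activatable antigen-presenting cells, and ICAM-1 is the adhesion molecule that holds cell and T cell together through beta 2 integrins. In marrow these proteins are carried by dendritic cells, monocytes, macrophages and B lineage cells, and several of their genes are known targets of NF-kappaB.

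The 8 genes were chosen by name: Cd83, Cd274, Pdcd1lg2, Cd80, Cd86, Cd40, Icosl and Icam1, of 18138 gene symbols on the array. They were picked with their restraint-versus-control values known, so those values are a description here and carry no test. Of these, 7 of 8 had probes on the Illumina MouseRef-8 v2.0 beadchip, 12 probes in all, and Icosl had 0 probes under its symbol, gene identifier or synonyms. Probes with a detection p under 0.05 on 3 or more arrays were kept, which left 10 probes of 6 genes. The Pdcd1lg2 probe (ILMN_2979089, chromosome 19) was detected on 1 of 26 arrays, restraint replicate 3 of experiment 2 with a log2 intensity of 5.18, and was not tested.

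RNA came from leukocytes sorted from the femoral marrow of male SCID mice (CB17/Icr-Prkdcscid) aged 6 to 8 weeks. Controls and treated mice alike carried human acute lymphoblastic leukemia grafts, whose cells were gated out in the sort. Mice were kept in the home cage (control), put under restraint stress, or given propranolol, which blocks beta-adrenergic receptors, along with restraint. Each of 2 experiments has 5 control, 5 restraint and 3 restraint plus propranolol arrays. There was no group with propranolol alone among the arrays used. Mice with this Prkdc mutation lack mature B and T cells. The labels do not say whether the arrays of a group are separate mice, so a p-value measures the spread between these arrays, which may be partly technical.

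Between 39.5% and 51.2% of all probes were detected per array, and median raw signals ran from 124 to 156. The member probes were read from 20 to 60 beads per array, with median bead standard errors of 2.07% to 3.15% of the signal. Levels are log2 intensities after background correction and quantile normalization, and levels of different probes are not compared with each other. Slide 1 held only arrays of experiment 1, slides 3 and 4 only arrays of experiment 2, and slide 2 arrays of both, so experiment and slide are largely confounded. Array weights were lowest for 3 arrays: restraint plus propranolol replicate 3 and control replicate 4 of experiment 2, and control replicate 5 of experiment 1. In bulk RNA, fewer cells of a type and less RNA per cell cannot be told apart.

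The promoters of 5 of the 8 genes are in the RefSeq table (build GRCm38.p6), and those of Cd40, Cd83 and Cd86 were not used here. The 250 bases before the start were searched on both strands for the NF-kappaB consensus, for the shorter kappaB core GGAANTTCC, for the gamma-activated site GAS (TTCNNNGAA), for the interferon element ISRE, for AP-1 (TGANTCA) and for the cAMP site CRE (TGACGTCA). The Icam1 promoter is shown because it held 2 matches of different kinds, at bases -153 to -145 (kappaB core) and -42 to -34 (GAS), both in capitals. It is chr9:21015690-21015939 on the plus strand. The Cd80 stretch, chr16:38458881-38458907 on the plus strand, holds an AP-1 match in capitals at bases -42 to -36.
Icam1: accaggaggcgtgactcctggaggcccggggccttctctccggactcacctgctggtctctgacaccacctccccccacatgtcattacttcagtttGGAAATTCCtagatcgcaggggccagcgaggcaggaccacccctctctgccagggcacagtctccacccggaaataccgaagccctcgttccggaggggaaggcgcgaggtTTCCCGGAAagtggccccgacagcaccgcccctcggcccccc
Cd80: ggccacacccTGATTCAgaactctcac
The kappaB core was present in 0.813% of 32851 mouse promoters of the same length, GAS in 7.02% and AP-1 in 6.75%. The NF-kappaB consensus, present in 7.25%, matched Icosl at bases -111 to -102 and Pdcd1lg2 at bases -244 to -235, and the Cd274 window held none of the letters searched. ISRE and CRE, present in 2.98% and 1.55%, matched none of the 5. The start used by the table for Cd80 and Cd274 lies downstream of the first base RefSeq gives for the gene.

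Restraint against control was the comparison by which the members were chosen. Of the 6 genes measured, Cd83, Cd274, Icam1, Cd80 and Cd86 were higher after restraint in both experiments, and Cd40 differed little. All 10 restraint arrays lay above the control mean of their experiment for each of those 5 genes, and 7 of 10 did for Cd40. The limma fit over all probes called 5 of the 6 genes higher, beside a background of 2.23% of 10792 genes called in either direction and 1.04% called higher. The median log2 difference was 0.87 over the 6 members and -0.00 over all genes tested. Nothing is read from the count, since the contrast chose the genes.

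Among the inhibitory ligands, Cd274 (probe ILMN_1226800, chromosome 19), which encodes PD-L1, had control levels in experiment 1 of 5.95, 6.38, 5.85, 5.82 and 6.40. The restraint levels of that experiment were 8.20, 7.10, 7.65, 7.45 and 7.25. Every restraint array was above every control array. In experiment 2 the control levels were 6.51, 6.69, 6.91, 7.70 and 6.53, and the restraint levels were 8.28, 8.57, 8.67, 8.64 and 8.32. Here too the groups did not overlap, and control replicate 4 stood nearest to the restraint group. The log2 difference over both experiments was 1.54 ± 0.20 (SE, 10 arrays against 10), 2.90-fold. Without background correction it was 0.88, and 0.87 on the authors' normalized values.

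The deposited normalized intensities show the same gene on a linear scale. The authors' normalized Cd274 intensity was 183 ± 14.3 (SD, n = 5) in the controls of experiment 1 and 307 ± 62.3 (SD, n = 5) after restraint. In experiment 2 it was 238 ± 49.1 (SD, n = 5) and 477 ± 44.5 (SD, n = 5). Pdcd1lg2, the second PD-1 ligand, stayed between 115 and 148 on the 20 control and restraint arrays in that table, near the floor of the arrays.

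Cd83 (probe ILMN_2865016, chromosome 13), found on mature dendritic cells and activated B cells, had control levels of 5.78, 5.40, 5.82, 4.78 and 5.23 in experiment 1. The lowest of these, replicate 4, was not detected above background. Restraint levels there were 7.68, 7.37, 7.08, 7.15 and 6.92. In experiment 2 the controls read 6.33, 6.11, 6.82, 7.23 and 7.16, and the restraint arrays 8.29, 7.94, 8.39, 8.10 and 7.52. Restraint and control did not overlap in either experiment, although the highest experiment 2 controls reached the level of the restraint arrays of experiment 1. The difference over both experiments was 1.58 ± 0.17 (log2, SE), 2.99-fold. It was 0.78 without background correction and also 0.78 on the authors' normalized values.

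Icam1 (probe ILMN_2896601, chromosome 9) encodes the ligand of the integrins LFA-1 and Mac-1. Its controls read 7.98, 7.77, 8.17, 7.86 and 7.21 in experiment 1, and the restraint arrays 9.47, 8.65, 8.91, 8.26 and 8.56. In experiment 2 the controls read 7.97, 7.94, 8.40, 8.41 and 8.29, and the restraint arrays 9.20, 9.27, 8.97, 8.68 and 8.96. The groups were apart in both experiments, with a narrower gap than for Cd83 or Cd274. The difference was 0.89 ± 0.14 (log2, SE), 1.86-fold.

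Cd80 and Cd86 are the ligands of CD28 and CTLA-4. Cd80 (probe ILMN_2877958, chromosome 16) read 6.20, 6.32, 6.20, 6.27 and 5.71 in the controls of experiment 1 and 7.99, 6.95, 7.18, 7.22 and 6.55 after restraint, with no overlap. In experiment 2 the controls read 6.23, 6.66, 6.81, 7.44 and 6.05 and the restraint arrays 6.83, 7.05, 8.07, 7.56 and 7.02, and the groups overlapped. The overlap came from control replicate 4, which was higher than 3 of the 5 restraint arrays. The Cd80 difference was 0.85 ± 0.20 (log2, SE), 1.81-fold, and 0.43 without background correction and on the authors' normalized values.

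Cd86 is read by 3 probes. The brightest (ILMN_2743244, chromosome 16) gave control levels of 7.04, 7.02, 7.82, 6.96 and 7.65 and restraint levels of 8.09, 7.47, 8.19, 7.87 and 7.91 in experiment 1. In experiment 2 the controls read 7.14, 7.30, 7.63, 8.89 and 6.78 and the restraint arrays 8.32, 8.14, 8.65, 8.85 and 8.96. The groups overlapped in both experiments, in experiment 2 only through control replicate 4. The difference was 0.82 ± 0.22 (log2, SE), and the other 2 probes gave 0.84 ± 0.23 (ILMN_1217041) and 0.67 ± 0.23 (ILMN_1216386). The Cd86 difference was 0.54 without background correction and 0.46 on the authors' normalized values. The call for Cd86 was lost in 23 of 38 alternative settings, and that for Cd80 in 6 of 38. Of these 6, 3 were the removal of control replicate 5 or restraint replicate 1 of experiment 1, or of control replicate 1 of experiment 2. Calls for Cd83, Cd274 and Icam1 were lost in 0 of 38. The settings reuse the arrays that chose the genes, so these counts describe the processing and add no support.

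Cd40 is the receptor through which helper T cells license an antigen-presenting cell. Its brightest probe (ILMN_3115796, chromosome 2) read 6.96, 6.44, 7.0, 5.82 and 6.56 in the controls and 7.23, 6.88, 6.06, 6.54 and 5.88 after restraint in experiment 1. In experiment 2 these were 6.56, 6.17, 5.83, 7.33 and 6.63, and 6.90, 6.97, 7.39, 7.34 and 6.56. The groups overlapped in both experiments, and the difference of 0.25 ± 0.23 (log2, SE) was about as large as its error. The probes ILMN_2502136 and ILMN_2503129, gave 0.35 ± 0.17 and 0.03 ± 0.13. A further Cd40 probe, ILMN_2496288, designed on another transcript record, was detected on 0 of 26 arrays.

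**Figure D1:**
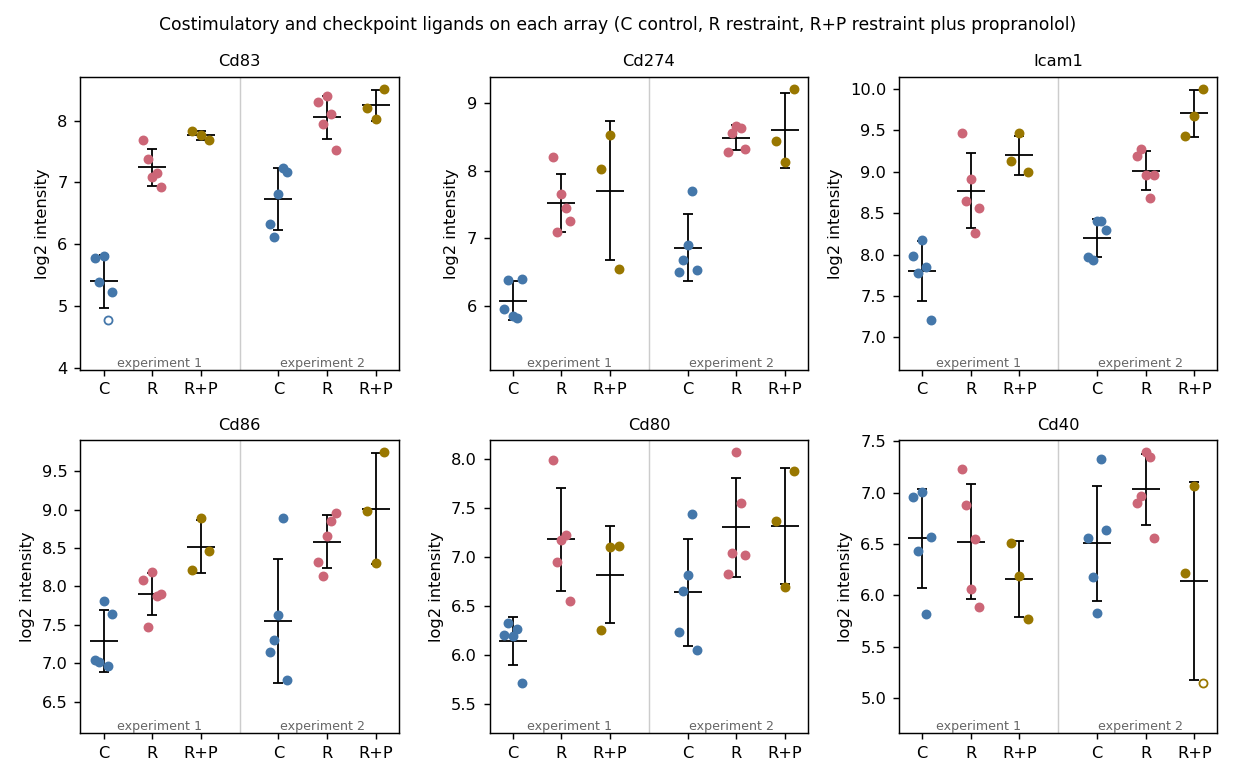
Log2 intensity of the brightest probe of each gene on each array, by condition and experiment (open points, not detected; black bars, group mean and SD; n = 5, 5 and 3 per experiment). Cd83, Cd274 and Icam1 separate restraint from control in both experiments, Cd80 in experiment 1, and Cd40 in neither.

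Non-overlap of restraint above control held for Cd83, Cd274, Icam1 and Cd80 in experiment 1, where 1.73% of all genes did so. It held for Cd83, Cd274 and Icam1 in experiment 2, where the share was 0.769%. These counts belong to the contrast that chose the genes.

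The difference was compared between the experiments by an interaction term. Cd83 differed by 1.84 ± 0.23 (log2, SE) in experiment 1 and 1.32 ± 0.23 in experiment 2, and the change between them was -0.52 ± 0.32 (limma adjusted p = 0.9998). For Cd274 the values were 1.45 ± 0.30 and 1.63 ± 0.30. The interaction was called for 0 of 6 members and 0% of all genes by limma, with 0 members and 355 genes at an unadjusted p under 0.05. The 95% intervals of the members' interactions ran from -1.19 to 0.15 for Cd83 and from -0.70 to 1.05 for Cd274.

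Within slide 1 (5 controls, 3 restraint arrays) the differences were 1.98 for Cd83, 1.57 for Cd274, 1.21 for Icam1, 1.24 for Cd80 and 0.62 for Cd86. Within slide 3 (2 controls, 5 restraint arrays) they were 0.85 for Cd83, 1.38 for Cd274, 0.66 for Icam1, 0.56 for Cd80 and 0.75 for Cd86. Each kept its sign on both slides, with no test. With slide as a fixed term, Cd83, Cd274 and Icam1 were still called and Cd80 and Cd86 were not.

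Unstressed mice of the 2 experiments already differed in Cd83. Its control mean was 5.40 ± 0.43 (SD, n = 5) in experiment 1 and 6.73 ± 0.50 (SD, n = 5) in experiment 2. The difference was 1.33 ± 0.23 (log2, SE; limma adjusted p = 0.0477), 2.51-fold, and only Cd83 and Pde4b, which encodes a cAMP phosphodiesterase, were called among all genes (0.0185%). Pde4b, named here after its value was seen, differed by 1.12 ± 0.20 (log2, SE, adjusted p = 0.0477). The Cd83 call was lost in 27 of 33 alternative settings, with adjusted p up to 0.335, and the value fell to 0.51 without background correction. Cd274 was 0.78 ± 0.30 higher in the controls of experiment 2 (adjusted p = 1.00, unadjusted p = 0.0150). Experiment and slide cannot be told apart in this comparison.

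**Figure D2:**
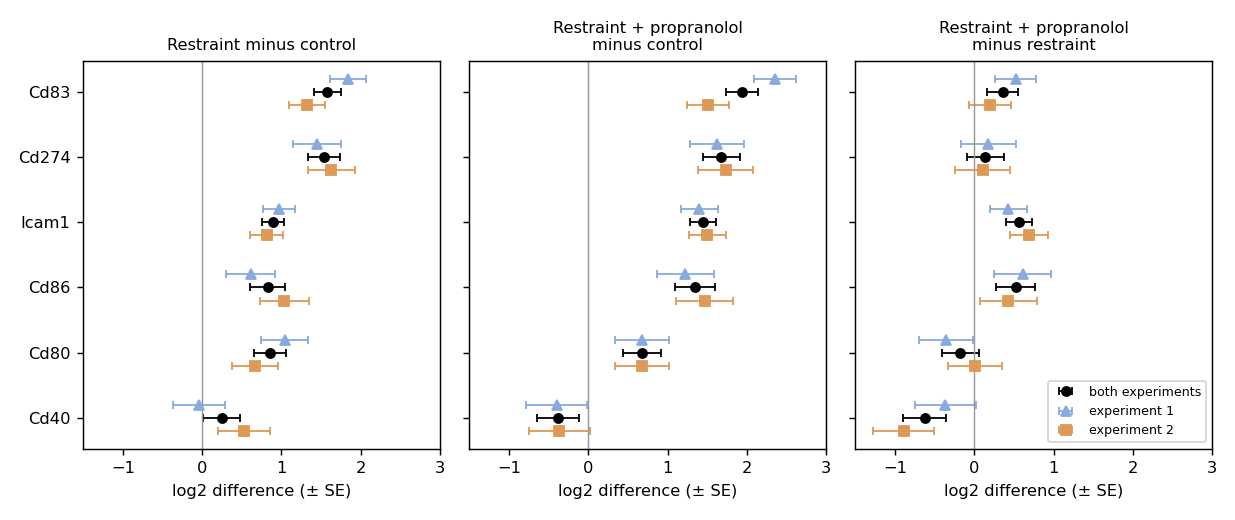
Log2 differences with standard errors for the 6 genes measured, over both experiments (circles) and in experiment 1 (triangles) and experiment 2 (squares). In the left and middle panels Cd83, Cd274, Icam1, Cd86 and Cd80 lie above 0 in each experiment, and in the right panel Icam1 (0.56) and Cd40 (-0.63) lie furthest from 0 over both experiments.

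Propranolol during restraint was compared with restraint alone, which asks whether beta-adrenergic blockade changes the ligands. This comparison uses the same restraint arrays as the first. No gene passed it: limma called 0 of 6 members and 0% of 10792 genes, while 3 members and 661 genes had an unadjusted p under 0.05. Those 3 members were Icam1 and Cd86, with higher levels under propranolol, and Cd40, with lower ones.

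Icam1 read 9.13, 9.46 and 9.0 under restraint plus propranolol in experiment 1 and 9.43, 9.68 and 10.002 in experiment 2. All 6 arrays were above the restraint mean of their experiment, and in experiment 2 all 3 exceeded every restraint array, as 1.16% of genes did. The difference from restraint was 0.56 ± 0.16 (log2, SE; unadjusted p = 0.00196, limma adjusted p = 0.491), with a 95% interval from 0.23 to 0.89. On slide 2, with 2 restraint and 3 propranolol arrays of experiment 1, it was 0.79, and on slide 3, with 5 and 1 of experiment 2, it was 0.42.

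Cd83 read 7.84, 7.76 and 7.69 in experiment 1, all above every restraint array, as for 2.31% of genes, and 8.20, 8.03 and 8.51 in experiment 2, within the restraint range or slightly above it. The difference from restraint was 0.36 ± 0.20 (log2, SE; limma adjusted p = 0.813), with a 95% interval from -0.05 to 0.77, and 5 of 6 arrays were above the restraint mean. The Cd83 difference was 0.73 on slide 2 and 0.15 on slide 3, which holds 5 restraint arrays and 1 propranolol array of experiment 2. Cd274 read 8.03, 8.53 and 6.56, then 8.44, 8.14 and 9.22. Its arrays were widely spread on both sides of the restraint levels, and the difference was 0.14 ± 0.24 (adjusted p = 0.951), with an interval from -0.34 to 0.62.

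Cd86 on its brightest probe read 8.21, 8.89 and 8.46 under restraint plus propranolol in experiment 1. These lay above every restraint array, as for 2.31% of genes, whereas for ILMN_1217041 and ILMN_1216386 the groups overlapped there. In experiment 2 the brightest probe read 8.98, 8.31 and 9.75, and the groups overlapped. Its difference was 0.52 ± 0.25 (log2, SE; limma adjusted p = 0.795). On the authors' normalized values the difference from restraint was 0.30 for Cd86 and 0.22 for Cd83. Cd80 read 6.25, 7.10 and 7.12, then 7.37, 6.69 and 7.88, overlapping the restraint arrays in both experiments. Its difference was -0.17 ± 0.24 (adjusted p = 0.939), with an interval from -0.66 to 0.31.

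The probes of Cd86 disagreed under propranolol. ILMN_1216386 was higher than restraint by 0.59 ± 0.34 in experiment 1 and lower by a difference of -0.66 ± 0.34 in experiment 2, an interaction of -1.25 ± 0.47 (log2, SE; limma adjusted p = 0.917). The other 2 Cd86 probes were higher in both experiments, by 0.46 and 0.45 for ILMN_1217041 and by 0.61 and 0.43 for ILMN_2743244.

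**Figure D3:**
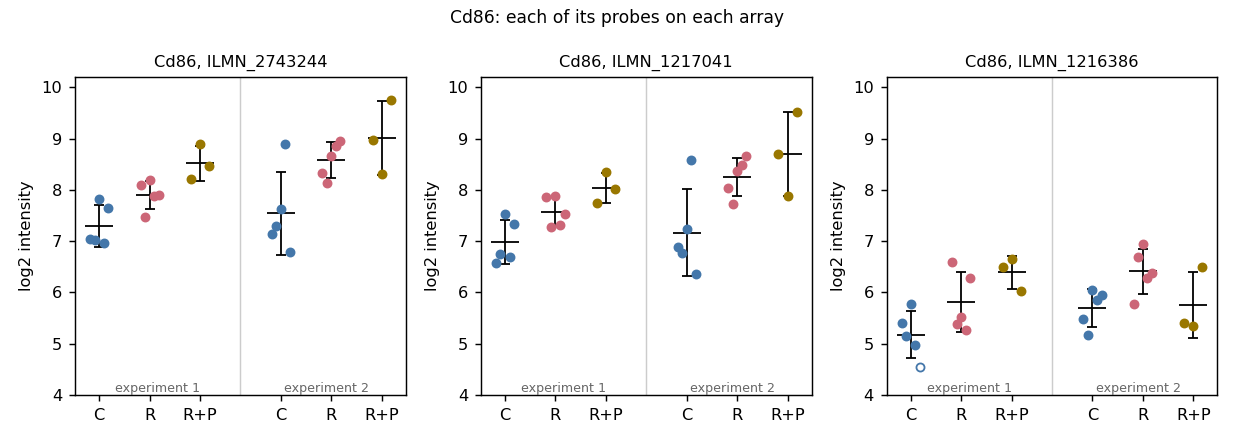
Log2 intensity of the 3 Cd86 probes on each array (open point, not detected; black bars, mean and SD). The left and middle probes place restraint plus propranolol above restraint in both experiments, and the right probe, ILMN_1216386, places it above in experiment 1 (6.40 against 5.81) and below in experiment 2 (5.75 against 6.41).

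Cd40 probes disagreed as well. The brightest, ILMN_3115796, read 6.51, 6.19 and 5.77 under restraint plus propranolol in experiment 1 and 6.22, 7.06 and 5.14 in experiment 2, the last not detected. It differed from restraint by -0.63 ± 0.27 (log2, SE; limma adjusted p = 0.767), while ILMN_2502136 differed by 0.32 ± 0.19 (adjusted p = 0.826) and ILMN_2503129 by -0.05 ± 0.15 (adjusted p = 0.978). Against control, ILMN_2502136 was 0.66 ± 0.19 higher (adjusted p = 0.0560), with 6 of 6 arrays above the control mean, and ILMN_3115796 differed by -0.38 ± 0.27 (adjusted p = 0.470), with 5 of 6 below. The direction for Cd40 therefore depended on the probe, and the mean over the Cd40 probes differed from control by 0.09 (adjusted p = 0.734).

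**Figure D4:**
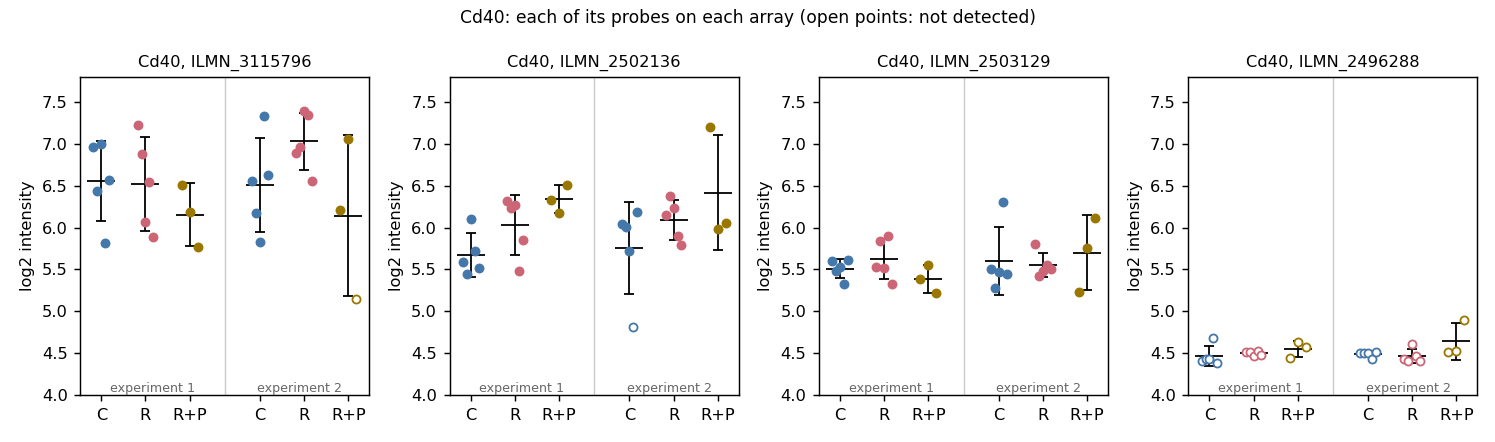
Log2 intensity of the 4 Cd40 probes on each array (open points, not detected; black bars, mean and SD). Restraint plus propranolol lies below restraint for ILMN_3115796 (-0.63) and above it for ILMN_2502136 (0.32), and ILMN_2496288 was detected on 0 arrays.

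Restraint plus propranolol was also set against control, with the control arrays shared with the first comparison. Cd83, Icam1, Cd274 and Cd86 rose, 4 of 6 members, where limma called 3.8% of all genes and 1.85% higher. Nothing is read from this count, since these control arrays also entered the contrast that chose the genes. The p-values below are not independent of that choice. The rise was 1.94 ± 0.20 for Cd83 (log2, SE; limma adjusted p = 5.8e-06), 3.83-fold, and 1.45 ± 0.16 for Icam1 (adjusted p = 1.2e-05), 2.73-fold. Cd274 rose by 1.68 ± 0.24 (adjusted p = 0.000106), 3.20-fold, and Cd86 by 1.35 ± 0.25 (adjusted p = 0.00234), 2.54-fold. On the authors' normalized values the rises were smaller, 1.0 for Cd83, 0.995 for Cd274, 1.11 for Icam1 and 0.76 for Cd86, and all 4 were still called. All 6 propranolol arrays were above the control mean of their experiment for each of these genes, read on its brightest probe. The Cd86 probe ILMN_1216386 was not called. It differed from control by 0.64 ± 0.26 (log2, SE; limma adjusted p = 0.186), with 4 of 6 arrays above the control mean. The remaining Cd86 probe, ILMN_1217041, was higher than control (adjusted p = 0.00558), with 6 of 6 arrays above. Cd80 differed by 0.68 ± 0.24 (adjusted p = 0.111), also with 6 of 6 arrays above, and by 0.33 on the authors' normalized values. It passed in 1 of 38 alternatives, without control replicate 4 of experiment 2 (0.78, adjusted p = 0.0495).

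The levels of Cd83, Cd274 and Icam1 under restraint plus propranolol were above every control array in both experiments. All genes gave that pattern in 5.6% of cases in experiment 1 and 3.06% in experiment 2. The controls are those of the contrast that chose the genes, so nothing is read from this. With slide as a fixed term, the Cd274 difference was 1.64 (limma adjusted p = 0.0942) and that of Cd86 1.21 (adjusted p = 0.290), both no longer called, while Cd83 and Icam1 were still called. The only slide with controls and propranolol arrays of the same experiment was slide 3, with 2 and 1, too few for a value.

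The receptors of these ligands sit mainly on lymphocytes, and the integrin chains Itgam and Itgb2 on myeloid cells as well. Of 9 receptor genes, 5 were measured: Cd28, Ctla4, Icos, Itgam and Itgb2. Cd28, the activating receptor for CD80 and CD86, rose by 0.98 ± 0.23 (log2, SE; limma adjusted p = 0.0262) with restraint and by 0.98 ± 0.27 (adjusted p = 0.0389) with restraint plus propranolol, against control. Icos, the receptor for ICOS ligand, differed by 0.50 ± 0.25 (adjusted p = 0.375) and rose by 1.02 ± 0.29 (adjusted p = 0.0439). Pdcd1, which encodes PD-1, was detected on 2 arrays and Cd40lg, the CD40 ligand, on 0. Of the 8 measured genes of the T cell marker list, 0 were called in either comparison, where 2.23% and 3.8% of all genes were. Several were dim: Cd3g was detected on 4 arrays, Cd3e and Cd4 on 5 each and Lck on 11, against 26 for Cd3d and Cd8a. The list's mean log2 level lay between 5.33 and 6.44 in controls and between 5.30 and 5.88 after restraint. With propranolol added it lay between 5.40 and 6.09. The part of T cells in the receptor values was not tested.

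Other costimulatory and checkpoint ligands were read from a list of 23, of which 17 were measured, some of them dimly (Tnfsf9 was detected on 3 arrays, Tnfsf8 on 5 and Slamf1 on 6). With restraint 0 of the 17 were called, where 2.23% of all genes were, and the median difference was -0.07 against -0.00 over all genes. Cd200, whose product sends an inhibitory signal to myeloid cells, fell by 0.98 ± 0.24 (log2, SE; limma adjusted p = 0.0214) in restraint plus propranolol against control. It was the only 1 of the 17 called there, where 3.8% of all genes were, and nothing is read from that count. Of 14 measured genes of dendritic cell maturation, 0 were called with restraint. Against control, restraint plus propranolol raised Marcksl1 by 1.03 ± 0.19 (adjusted p = 0.00258) and Ccr7, the lymph node homing receptor, by 0.97 ± 0.25 (adjusted p = 0.0253), and Cd200, which is also on this list, was lower. In that comparison 1.85% of all genes were called higher and 3.8% in either direction.

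Of the 5 related lists shown, NF-kappaB and CD40 signalling had the most calls. Of its 20 genes, 6 rose and 0 fell with restraint, and 7 rose and 0 fell with restraint plus propranolol, both against control. Over all genes, 1.04% and 1.85% were called higher. It also had the most measured genes of the 5 lists, which were chosen with earlier results of these data known. The receptor list held 1 called gene of 5 with restraint and 2 of 5 with restraint plus propranolol. The latter is a larger share than 7 of 20. Rel, a DNA-binding subunit, rose by 0.98 ± 0.15 (log2, SE; limma adjusted p = 0.000715) and 1.36 ± 0.17 (adjusted p = 2.7e-05). Nfkb2, the precursor of the p52 subunit, rose by 0.76 ± 0.16 and 1.11 ± 0.18. The inhibitor genes Nfkbia, Nfkbib and Nfkbie rose with restraint by 0.84, 0.88 and 0.81, and with propranolol added by 1.05, 1.06 and 1.11. Relb, which pairs with p52, differed by 0.43 ± 0.18 (adjusted p = 0.265) and rose by 0.98 ± 0.21 (adjusted p = 0.00815). Rela and Nfkb1, the classical subunits, did not pass in either comparison.

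Of 8 genes that govern PD-L1 protein or transcript stability, 0 were called in either comparison with control, where 2.23% and 3.8% of all genes were. Propranolol against restraint called 0% of all genes, so 0 calls there says nothing about the list. With restraint 3 of the 8 were higher and 5 lower (median -0.05). With restraint plus propranolol against control 1 was higher and 7 lower (median -0.15). Cmtm6, which keeps PD-L1 on the surface, differed by -0.02 ± 0.12 (limma adjusted p = 0.963) with restraint.

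**Figure D5:**
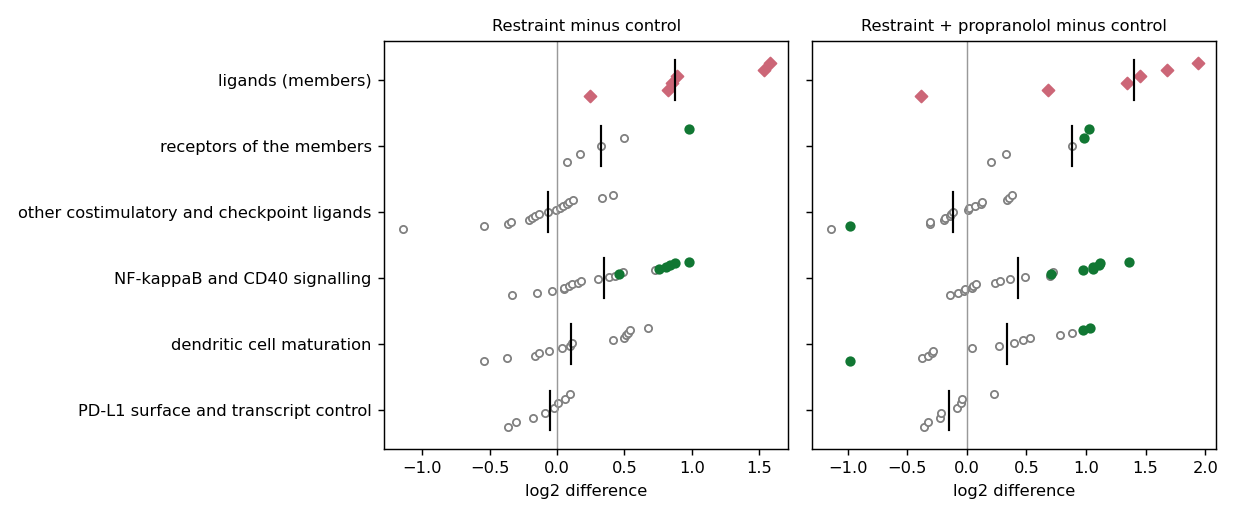
Log2 differences from control of the measured ligands (diamonds) and of each gene of 5 related lists (filled points, limma adjusted p under 0.05; open points, not called; vertical bars, medians). NF-kappaB and CD40 signalling, the list with the most measured genes, holds the most called, 6 with restraint and 7 with restraint plus propranolol. The other ligands lie on both sides of 0.

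Marker genes of the cells that could carry the ligands were read on the same arrays. Of 7 measured conventional dendritic cell markers, 0 were called with restraint, where 2.23% of all genes were. Xcr1 and Batf3 were detected on 0 arrays. All 7 measured markers were higher than control with restraint (median 0.09). All 7 were lower in restraint plus propranolol than in restraint (median -0.24). Their mean log2 level ranged from 6.71 to 7.39 in controls, from 6.77 to 7.69 after restraint and from 6.88 to 7.13 with propranolol added. Of 11 monocyte and macrophage markers 1 rose, Cd14, by 0.81 ± 0.19 (log2, SE; limma adjusted p = 0.0229) with restraint and 1.40 ± 0.22 (adjusted p = 0.000314) with propranolol added, both against control. Over all genes, 1.04% and 1.85% were called higher. With restraint 8 of the 11 were higher than control and 3 lower (median 0.23). In restraint plus propranolol against restraint, 2 were higher and 9 lower (median -0.19). The list ranged from 6.60 to 7.89 in controls, from 7.31 to 8.21 after restraint and from 7.07 to 7.92 with propranolol added. Of 12 neutrophil markers 0 were called in either comparison with control, where 2.23% and 3.8% of all genes were.

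Of the marker lists of other cell types, the erythroid and B lineage lists held called genes. The plasmacytoid dendritic cell, T cell, NK cell, and megakaryocyte and platelet lists held 0 called genes in each of the 3 comparisons. So did the endothelial and stromal list, the eosinophil, basophil and mast cell list, and the stem and progenitor list. Of 10 erythroid markers, 5 fell with restraint, with a median of -2.04, where 2.23% of all genes were called. With restraint plus propranolol against control 1 fell, with a median of -2.03, where 3.8% of all genes were called. The erythroid list ranged from 5.23 to 8.79 in controls, 4.65 to 6.86 after restraint and 4.50 to 8.04 with propranolol added. Of 7 B lineage markers, 2 fell with restraint, among them Rag1 by 2.05 ± 0.41 (log2, SE; limma adjusted p = 0.0098). With restraint plus propranolol against control 1 of the 7 fell. That list ranged from 5.33 to 7.26 in controls, from 5.01 to 5.63 after restraint and from 5.17 to 5.87 with propranolol added. The B cell genes Ms4a1 and Pax5 and the endothelial genes Cdh5, Kdr and Pdgfrb were detected on 0 arrays. The part of these lists in the ligand values was not tested.

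Across the 26 arrays, with each experiment's mean subtracted, the measured ligands other than Cd40 varied together. Pearson's r ran from 0.64 for Cd80 with Icam1 to 0.88 for Cd83 with Icam1, and from -0.11 to 0.08 for Cd40 with the other 5. The arrays share the 3 conditions, which separate them into groups, so these values describe the pattern and carry no p. By the same measure the genes most like Cd83 were Rora (0.92), Emp1 (0.91), Bhlhe40 (0.91), Rel (0.90) and Tgif1 (0.89). Those most like Cd274 were Bbc3 (0.84), Lmna (0.83), Dusp16 (0.83), Zfp263 (0.83) and Sod2 (0.82). Rel is also 1 of the NF-kappaB genes above.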

How the data were processed

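Bead-level intensity was averaged per probe in GenomeStudio per the submitters' processing notes, with no version given. The raw matrix the authors deposited holds this intensity, not background-subtracted (lowest value 96.0), with a detection p-value per probe and array, per the file headers. Bead number and bead standard error come from the same file. The authors' deposited normalized matrix holds linear intensity per symbol, and its method is not given in the sources used here. The raw matrix also has 24 columns of 6 arrays whose names match no labelled sample, and these were left out.

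From the raw intensities of 26 arrays, limma's neqc (3.58.1, R 4.3.3, offset 16) gave log2 values. Of 25697 probes, 15061 passed the detection filter, and the brightest probe stood for each of 10792 genes. Linear models with condition and experiment, or with 6 groups for values within experiments and interactions, were fitted with lmFit and eBayes, with Benjamini-Hochberg adjustment over all kept probes. A gene was called at adjusted p under 0.05. Array number limits the precision. Fits were tested on simulated data.

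The members and all lists were chosen with earlier results of these data known. Named genes are the members, up to 6 called genes per pathway list by smallest p, and the 5 genes most correlated with Cd83 and with Cd274. Replicates of equal number were not paired. Alternatives covered normalization, filters, slide, replicate block, array weights, probe choice and each array left out. Figures used matplotlib. The results of 1 further gene list are not reported here.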

Additional observations from a re-analysis of the deposited data

Results flagged for a closer look

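Cd80 in control replicate 5 of experiment 1 had a log2 intensity of 5.71, below the other 4 controls of that experiment, which lay between 6.20 and 6.32. It was flagged because its gap to the nearest array is large for the range of its group. It was the only 1 of 24 groups of 5 arrays flagged, and chance flags about 1 group in 20. The same array is 1 of the 3 of lowest array weight. Without it the Cd80 difference between restraint and control was no longer called.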

How the results depend on the processing

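Calls for Cd83, Cd274 and Icam1 with restraint held in 38 of 38 alternatives. Those for Cd83 and Icam1 in restraint plus propranolol against control also held in 38 of 38. The alternatives reuse arrays by which the genes were chosen, so they describe the processing and add no support. Members called with restraint went from 5 to 3 on the authors' normalized matrix, without the filter on dim probes and with slide as a fixed term, and those in restraint plus propranolol against control from 4 to 2 with slide as a fixed term. These gene counts moved by over 1.5 times, and the cause was not tested. Genes called with restraint numbered 241, against 149 with median scaling, 135 without the filter, 78 with slide as a fixed term, 886 with array weights and 402 without the 3 arrays of lowest weight, which was added once the data had been seen. Restraint plus propranolol against restraint gave 0, but 7 with array weights and 1 with only the arrays compared. Restraint plus propranolol against control gave 410, but 23 with slide as a fixed term and 1038 with array weights. The interaction for restraint gave 1 with array weights. The controls of the 2 experiments differed in 2 genes, but in 146 with array weights, 1 on the authors' matrix and 0 with quantile normalization alone, median scaling, no filter or without the 3 arrays. Members called there went from 1 to 0 in the last 5 settings named.

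Leaving out each array in turn gave 106 to 339 genes with restraint (members 3 to 5), 0 to 2 for propranolol against restraint, 234 to 503 for propranolol against control (members 4 to 5), 0 to 17 for the interaction of propranolol and 0 to 3 between controls (members 0 to 1). The lowest counts came without restraint replicate 1 of experiment 1 (106) and without restraint plus propranolol replicate 2 of experiment 1 (234), and the 17 without restraint plus propranolol replicate 2 of experiment 2. Of 22 pairs of arrays with the same replicate number, 4 correlated above 0.1 (r from -0.27 to 0.32). So few pairs cannot settle whether the numbers pair samples. With the replicate block, 261 genes were called with restraint, 0 for propranolol against restraint and 240 for propranolol against control, and no member's call changed in these 3.

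Signs turned for values that were not called. Cd40 in propranolol against control was 0.037 on the authors' matrix and 0.090 over the mean of its probes, and its difference between controls was 0.021 on the authors' matrix. The Cd83 interaction for restraint was 0.0063 with quantile normalization alone. That of Icam1 was 0.19 with array weights and 0.039 without the 3 arrays of lowest weight. The Cd274 interaction of propranolol was 0.096 with median scaling. With single arrays left out, the ranges that crossed 0 were -0.031 to 0.38 for Cd274 in propranolol against restraint, -0.29 to 0.014 for the Icam1 interaction for restraint, and -0.65 to 0.34 (Cd274) and -0.55 to 0.17 (Cd86) for the interaction of propranolol. Between controls they were -0.083 to 0.44 for Cd86 and -0.26 to 0.12 for Cd40. Pdcd1lg2 and 1 Cd40 probe were too dim to measure here.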
